A study of Homo sapiens with 6 samples.

Results

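The UBE2 genes encode ubiquitin-conjugating enzymes (E2s) and a few close relatives that carry ubiquitin-like proteins. Members were all protein-coding genes whose symbol begins with UBE2 and that had at least 1 probe set annotated to that symbol alone, which gave 26 of the 19775 genes read by such a probe set. Pseudogenes (4 symbols) and long non-coding RNAs (2 symbols) were left out, and 1 further gene, UBE2V1, was read only by probe sets that carry several symbols. The other 9 protein-coding UBE2 genes of the RefSeq gene table were not analysed here. Of the 26 members, 25 had a mean log2 value of at least 5.49, the median of all probe set means, and were tested together with the other genes that passed, 12939 in all. The member below that level was UBE2U.

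The RNA came from MM1.S, an established human multiple myeloma cell line, measured on 6 single-colour Affymetrix arrays. The knockdown group (3 arrays) carried a lentiviral shRNA against beta-catenin, the product of CTNNB1, and the control group (3 arrays) carried a control shRNA in the same kind of vector. All cells had thus been infected, and GFP-positive cells were sorted and cultured in triplicate. The sample titles call the arrays of each group biological replicates and name the control a GFP control. No separate infections are described, so the p-values measure the spread between these cultures, which may be technical. The number of hairpins and their sequences are not given in the sources used here. The purpose that the submitters state is a comparison of gene expression in multiple myeloma.

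An E2 receives activated ubiquitin from an E1 enzyme on a catalytic cysteine and, with an E3 ligase that holds the substrate, passes it on. Some E2s place the first ubiquitin, others extend a chain, and the linkage that the E2 builds helps to decide whether the substrate is degraded or used as a signal. Myeloma cells, which secrete large amounts of antibody, are known for their reliance on ubiquitin-dependent protein degradation.

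All values are log2 expression values as deposited, and a change is the knockdown mean minus the control mean on that scale. Genes were called higher or lower at an adjusted p of at most 0.05 (limma's moderated test, Benjamini-Hochberg adjustment over the 12939 genes). CTNNB1 itself had 6.39, 6.53 and 6.34 in the knockdown arrays, against 7.82, 7.67 and 7.75 in the control arrays, on its brightest probe set. That probe set fell by 1.33 (SE 0.10), while the other CTNNB1 probe sets gave changes of 0.33 and −0.07. The one with 0.33 was itself called higher (limma adjusted p = 0.039 over all probe sets), and its groups did not overlap. Array medians were 5.50 to 5.54 in the knockdown and 5.44 to 5.50 in the controls. All 9 plasma cell markers examined were above the filter, with group means of 7.20 to 10.81 in the knockdown and 6.81 to 10.87 in the controls, and 4 of them were called higher and 3 lower. Of 3 markers of MAF-type myeloma, all above the filter, 2 were called higher. Of the markers of other cell types, 2 of 4 for B cells, 1 of 5 for T and NK cells, 3 of 4 for myeloid cells and 3 of 4 for fibroblasts were above the filter, and 1 of these genes, a myeloid one, was called. The ribosomal RNA control probe sets averaged 9.75, 9.81 and 10.22 in the knockdown arrays, against 8.60, 9.63 and 8.84 in the control arrays (difference 0.90, exact two-sided permutation p = 0.1, the smallest that 3 against 3 arrays allow). Their part in the results below was not tested.

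Most UBE2 genes differed between the groups, in both directions. Of the 25 tested members, 11 rose, 9 fell and 5 were not called, so that 80.0% were called, against a background of 47.3% of all genes tested (25.3% higher and 22.0% lower). Of all genes called, 53.5% were higher, against 45.5% with array medians centred, 49.2% after quantile normalization and 48.3% after cyclic loess. The members were all bright: every tested one also had a mean at or above the 75th percentile of probe set means, and of the 7615 genes that bright 58.5% were called. The values of the groups did not overlap for 21 members, against 54.4% of all genes and 4917 of the 7615 as bright. The median change of the family was −0.03, against 0.05 over all genes and 0.02 over those as bright. The median size of the change was 0.42, against 0.24 over all genes and 0.31 over those as bright. Changes of at least 1 in size were found for UBE2C, UBE2T and UBE2N, all lower in the knockdown. The background was 6.12% of all genes, and 653 of the 7615 as bright. The signal from bulk RNA does not tell apart fewer cells that express a gene and less RNA per cell.

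**Figure D1:**
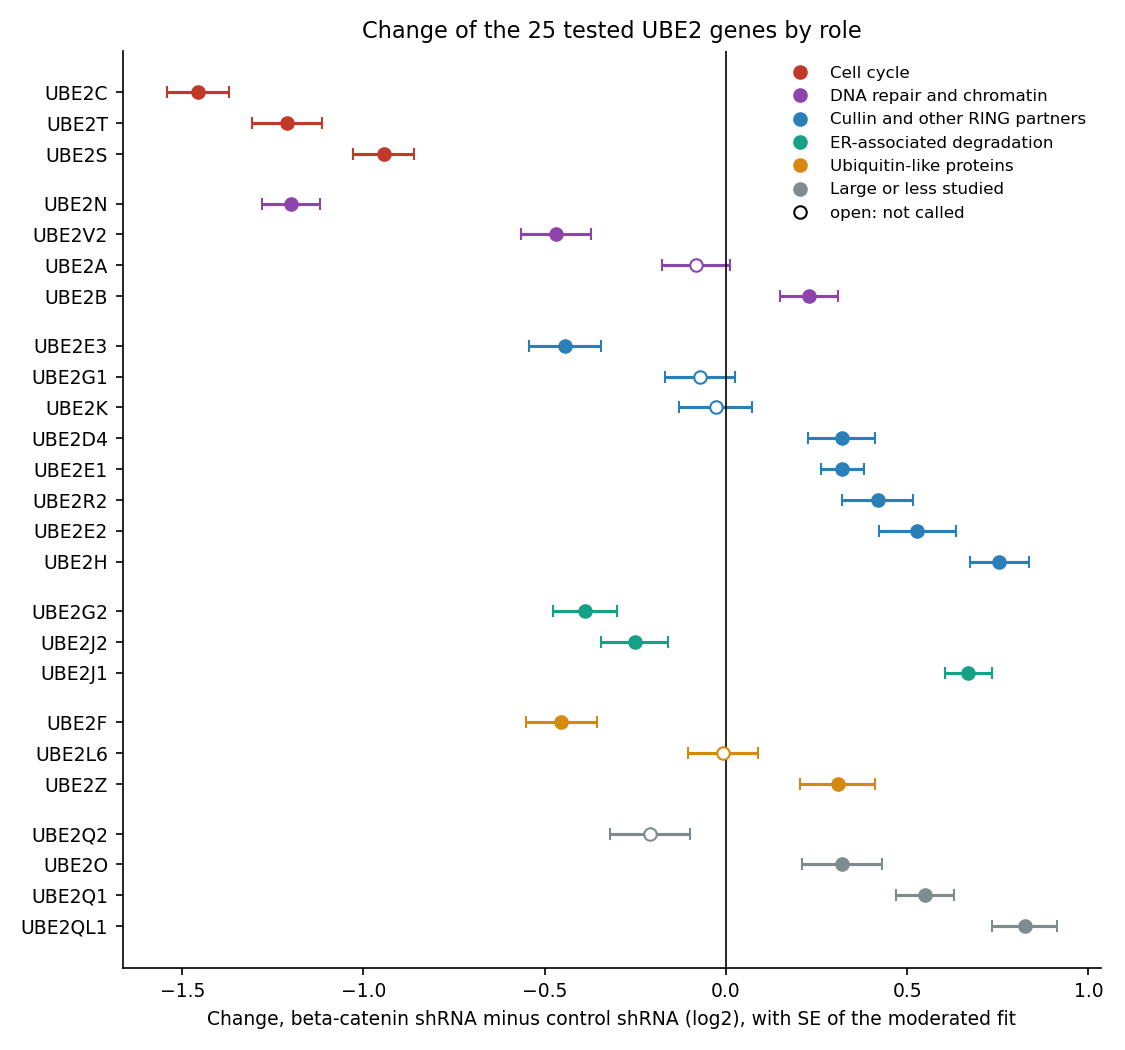
Change of each tested UBE2 gene (knockdown minus control, log2, horizontal axis) with the SE of the moderated fit, grouped by role; filled points passed the adjusted threshold and open points did not. The 3 cell-cycle E2s and UBE2N lie at the left, between −1.46 and −0.94, while UBE2QL1, UBE2H and UBE2J1 lie furthest right, at 0.82, 0.75 and 0.67.

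The cell-cycle E2s, UBE2C, UBE2S and UBE2T, all fell. UBE2C places the first ubiquitins on substrates of the anaphase-promoting complex (APC/C), the ligase that triggers chromosome separation and mitotic exit. UBE2C had 7.993, 8.001 and 7.875 in the knockdown arrays, against 9.427, 9.379 and 9.434 in the control arrays. The 3 knockdown arrays were all lower than every control array, and the arrays of each group lay close together. UBE2C fell by 1.46 (SE 0.09, limma adjusted p = 1.18e-14), to 36.4% of the control level, and stood 139th from the largest fall among the 12939 genes.

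UBE2S works after UBE2C on the APC/C and lengthens the chains. It had 8.63, 8.75 and 8.63 in the knockdown arrays, against 9.77, 9.54 and 9.54 in the control arrays. The groups were again separate, with the first control array above the other two. UBE2S fell by 0.94 (SE 0.08, limma adjusted p = 1.16e-10), which is 52.0% of the control level.

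UBE2T is the E2 of the Fanconi anaemia pathway, in which it attaches a single ubiquitin to the FANCI and FANCD2 proteins at DNA crosslinks. It had 7.47, 7.66 and 7.53 in the knockdown arrays, against 8.91, 8.71 and 8.67 in the control arrays. No knockdown array reached the lowest control array. UBE2T fell by 1.21 (SE 0.10, limma adjusted p = 1.34e-11), which left 43.2% of the control level. Each of these 3 genes was read by 1 probe set, so no further probe set of the gene bears on its value. That of UBE2S carries a cross-reading mark, as defined in the processing section.

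As a description with no test, the mean log2 value over the 3 cell-cycle E2s was 8.03, 8.14 and 8.01 in the knockdown arrays, against 9.37, 9.21 and 9.22 in the control arrays. The mean over the other 22 tested members was 8.40, 8.45 and 8.33 in the knockdown arrays, against 8.37, 8.24 and 8.35 in the control arrays. The first mean was lower in every knockdown array than in any control array, while the ranges of the second overlapped. The median change was −1.21 for the 3 cell-cycle E2s and 0.11 for the other 22. Of those 22, 11 rose, 6 fell and 5 were not called. Among these 6 was UBE2N, with −1.20 on its brightest probe set and −0.60 on the one without a cross-reading mark.

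**Figure D2:**
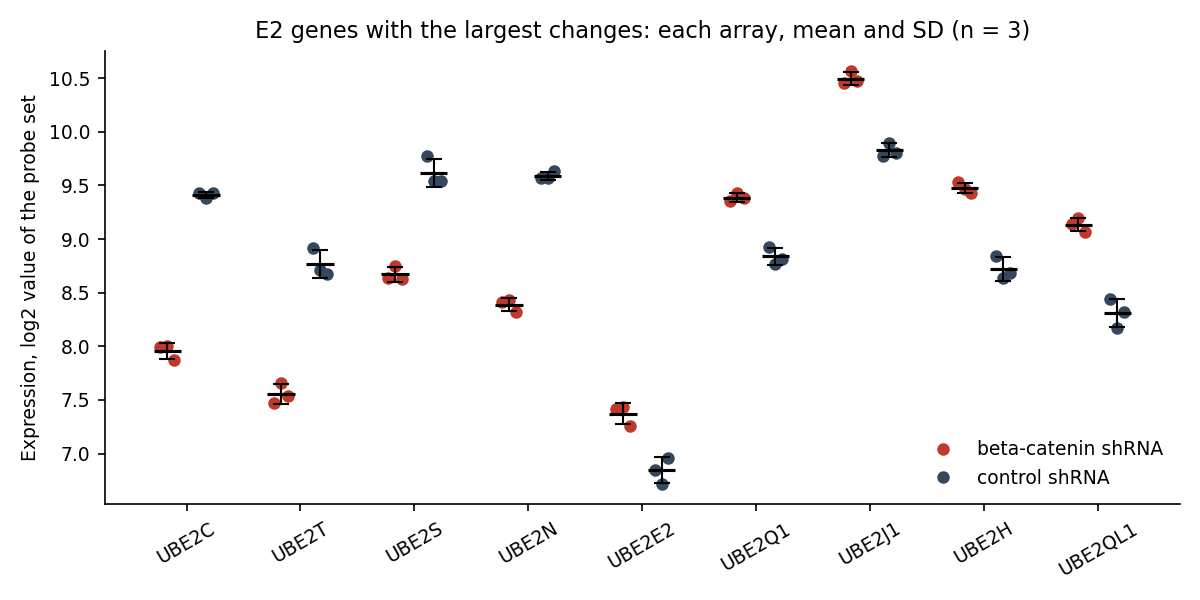
Log2 expression value (vertical axis) of the UBE2 genes with called changes of at least 0.5 in size, 1 point per array, with the knockdown arrays left of the control arrays and bars for the mean and SD of each group (n = 3). For every gene shown the 3 knockdown arrays are separate from the 3 control arrays, lower for UBE2C, UBE2T, UBE2S and UBE2N and higher for the others.

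Promoters are shown for 3 of the genes that fell furthest, to set the letters of cell-cycle promoters beside their values. The windows run from 250 bases before to 50 bases after the RefSeq gene start (GRCh38.p14), are 300 bases long and are written 5′ to 3′ on the gene's strand, which is the minus strand for all 3. They lie at chr1:202341887-202342186 (UBE2T), chr19:55407739-55408038 (UBE2S) and chr12:93441898-93442197 (UBE2N). Capitals mark matches, on either strand, to the motifs searched: TTTGAA or its variant TTCGAA of the cell-cycle genes homology region, the CCAAT box, the E2F motifs TTGGCGC or TTCCCGC or TTCGCGC, the TCF motifs CTTTGAT or CTTTGAA, and the ER stress element, which is CCAAT followed after 9 bases of any kind by CCACG.
UBE2T: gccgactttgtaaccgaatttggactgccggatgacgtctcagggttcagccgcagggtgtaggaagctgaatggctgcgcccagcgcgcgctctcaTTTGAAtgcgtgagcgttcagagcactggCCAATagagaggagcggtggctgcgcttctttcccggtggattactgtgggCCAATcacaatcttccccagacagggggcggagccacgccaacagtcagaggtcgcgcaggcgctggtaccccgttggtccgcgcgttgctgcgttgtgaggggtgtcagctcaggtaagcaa
UBE2S: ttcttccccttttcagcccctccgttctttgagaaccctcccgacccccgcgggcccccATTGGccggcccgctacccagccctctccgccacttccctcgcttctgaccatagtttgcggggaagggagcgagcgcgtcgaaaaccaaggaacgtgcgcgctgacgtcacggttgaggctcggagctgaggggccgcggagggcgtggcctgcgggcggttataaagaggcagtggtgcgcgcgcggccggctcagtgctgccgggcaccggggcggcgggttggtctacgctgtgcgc
UBE2N: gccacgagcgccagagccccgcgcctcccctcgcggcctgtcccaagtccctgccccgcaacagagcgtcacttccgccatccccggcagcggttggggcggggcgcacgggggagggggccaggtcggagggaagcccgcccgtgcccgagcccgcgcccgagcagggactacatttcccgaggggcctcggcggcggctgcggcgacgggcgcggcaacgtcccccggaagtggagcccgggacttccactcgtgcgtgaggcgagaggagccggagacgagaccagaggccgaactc
The UBE2T window holds TTTGAA with its first base at −153 from the start, followed by CCAAT at −124 and −73. The UBE2S window holds CCAAT on the opposite strand at −191, and the UBE2N window holds none of the motifs.

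Windows were searched for 21 of the 26 members (27 windows), and UBE2C had no entry. Windows on chromosome 8, where UBE2V2 lies, were left out for the members but kept among all windows. TTTGAA occurred in 3 of the 27 windows, those of UBE2T, UBE2F and UBE2U, and in 15.2% of all 35116 windows. CCAAT occurred in 7 members (UBE2T, UBE2S, UBE2F, UBE2E3, UBE2E1, UBE2Z and UBE2U) and in 34.6% of all windows. CTTTGAA, which contains TTTGAA, occurred in UBE2F and UBE2U and in 4.43% of all windows, and TTCCCGC occurred in UBE2E3 and in 6.55%. TTCGAA (1.45% of all windows), TTGGCGC (3.04%), TTCGCGC (2.24%), CTTTGAT (2.62%) and the ER stress element (0.0769%) were in none of the 27 windows searched. A match describes the letters alone. Of the members with CCAAT, UBE2T, UBE2S, UBE2F and UBE2E3 fell, and UBE2E1 and UBE2Z rose. Of those with TTTGAA, UBE2T and UBE2F fell. UBE2U, which holds both motifs, was below the filter. A part of these motifs in the changes was not tested.

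The E2s of DNA repair and chromatin moved unequally, with 2 of 4 lower, 1 higher and 1 not called. UBE2N builds the lysine-linked signalling chains of DNA damage tolerance and NF-kB signalling, together with an inactive E2 variant, UBE2V1 or UBE2V2. UBE2N had 8.41, 8.43 and 8.32 in the knockdown arrays, against 9.57, 9.57 and 9.63 in the control arrays. The groups lay far apart relative to the spread within each. UBE2N fell by 1.20 (SE 0.08, limma adjusted p = 2.91e-13), to 43.5% of the control level. All 3 of its probe sets were lower. The pair that the array design marks as able to read other transcripts had changes of −1.20 and −0.88, and the unmarked one had a change of −0.60 (adjusted p = 0.00114 over all probe sets, limma). The brightest probe set therefore gave the largest fall, and the value depends on the probe set read by more than 1.5 times.

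UBE2V2, the partner that turns UBE2N into a chain-building enzyme, had a change of −0.47 on its brightest probe set (limma adjusted p = 0.000179). Its probe sets disagreed: another above the filter gave 0.11, and a dim one was called higher with 0.44. Averaging them gave 0.03 (limma adjusted p = 0.836), so a fall of UBE2V2 rests on 1 probe set. UBE2A and UBE2B, near-identical enzymes that attach ubiquitin to PCNA and to histone H2B, had changes of −0.08 (adjusted p = 0.505) and 0.23 (adjusted p = 0.019). UBE2A overlapped between the groups. UBE2B rose, a call that was lost when any of 3 single arrays was left out, with array medians centred (0.17, adjusted p = 0.0779) and without the intensity trend (adjusted p = 0.0546).

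Of the 8 E2s that serve cullin and other RING ligases, 5 were higher, 1 was lower and 2 were not called, with a median change of 0.32. Over all genes as bright, 29.3% were higher and 29.2% lower. UBE2H, the E2 of the CTLH ligase complex, had 9.53, 9.47 and 9.43 in the knockdown arrays, against 8.85, 8.64 and 8.68 in the control arrays. Every knockdown array was above every control array. UBE2H rose by 0.75 (SE 0.08, limma adjusted p = 6.66e-09), or 1.69-fold. Of its 7 probe sets above the filter, 4 were higher, and a further 3, all dimmer, gave values between −0.23 and 0.33 that were not called. The change of UBE2H was 0.39 on the mean over probe sets and 1.12 on the brightest probe set without a cross-reading mark, and it was called higher in both cases.

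UBE2E2, of a subfamily that works with many RING ligases, had 7.42, 7.44 and 7.26 in the knockdown arrays, against 6.85, 6.72 and 6.96 in the control arrays. The groups were separate, by a smaller margin than for UBE2H. UBE2E2 rose by 0.53 (SE 0.11, limma adjusted p = 0.000134), or 1.44-fold, on its only probe set. Its relatives split, since UBE2E1 rose by 0.32 (adjusted p = 5.04e-05) and UBE2E3 fell by 0.44 (adjusted p = 0.000476). UBE2R2, which extends chains on substrates of SCF ligases, rose by 0.42 (adjusted p = 0.000685), with both of its probe sets higher. UBE2D4, of the subfamily that starts chains with many ligases, rose by 0.32 (adjusted p = 0.00527), and 2 of its 5 probe sets were higher; on the mean over probe sets it was not called (adjusted p = 0.0962). UBE2G1, which acts with cullin-4 ligases, had a change of −0.07 (adjusted p = 0.579), and UBE2K, which builds degradative chains, had −0.03 (adjusted p = 0.848), with overlapping groups for both. For UBE2K another probe set was lower, with −0.39 (adjusted p = 0.0137 over all probe sets, limma), and its dimmest had −0.36, not called. On the mean over probe sets UBE2K was called lower (−0.26, limma adjusted p = 0.0343), so its result depends on the probe set read.

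Of the E2s of endoplasmic reticulum (ER) associated degradation, 1 rose and 2 fell. UBE2J1 is anchored in the ER membrane and works with the ligase of the HRD1 complex on misfolded secretory proteins. UBE2J1 had 10.45, 10.56 and 10.48 in the knockdown arrays, against 9.78, 9.90 and 9.81 in the control arrays. The groups were far apart, with little spread within either. UBE2J1 rose by 0.67 (SE 0.07, limma adjusted p = 7.86e-10), or 1.59-fold, and all 6 of its probe sets were higher, by 0.43 to 0.67. UBE2G2, a soluble E2 recruited to the ER membrane by the ligase gp78, fell by 0.39 (adjusted p = 0.00054), with all 3 of its probe sets above the filter lower, by 0.39 to 0.55. UBE2J2, the other membrane-anchored E2, fell by 0.25 (adjusted p = 0.0245), a call lost when any of 3 single arrays was left out.

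Of the E2s for ubiquitin-like proteins, 1 rose, 1 fell and 1 was not called. UBE2F, which carries NEDD8 to cullin-5, fell by 0.45 (adjusted p = 0.000275). UBE2Z, which is charged by the E1 enzyme UBA6 with ubiquitin or FAT10, rose by 0.31 (adjusted p = 0.0149), on its brightest probe set. Its change was 0.06 when the probe sets were averaged (adjusted p = 0.646), and the call was lost without knockdown replicate 2. UBE2L6, the E2 for ISG15, had a change of −0.01 (adjusted p = 0.96) with overlapping groups.

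Among the 4 tested large or less studied members, 3 rose and none fell, beside the 29.3% higher and 29.2% lower of all genes as bright. UBE2QL1, a relative of UBE2Q1 whose substrates are little known, had 9.14, 9.19 and 9.07 in the knockdown arrays, against 8.44, 8.17 and 8.32 in the control arrays. All knockdown arrays were above all control arrays. UBE2QL1 rose by 0.82 (SE 0.09, limma adjusted p = 6.08e-09), or 1.77-fold, the largest rise of the family on brightest probe sets, and its other probe set gave 0.88. A probe set of UBE2H gave a larger rise, 1.12.

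UBE2Q1 had 9.35, 9.43 and 9.38 in the knockdown arrays, against 8.93, 8.77 and 8.82 in the control arrays. The groups did not overlap. UBE2Q1 rose by 0.55 (SE 0.08, limma adjusted p = 1.26e-06), or 1.46-fold, but a dimmer second probe set above the filter gave 0.00, and the mean over its probe sets gave 0.15 (adjusted p = 0.157). UBE2O, a large enzyme that joins E2 and E3 activity and clears proteins in maturing red cells, rose by 0.32 (adjusted p = 0.0165), a call lost without knockdown replicate 1 or 3. UBE2Q2 had a change of −0.21 (adjusted p = 0.124), although its groups did not overlap, and was called lower, at −0.27 to −0.26, under the 3 other scalings. UBE2U, below the filter, averaged 5.45 in the knockdown and 5.41 in the controls.

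Across the 75 probe sets of the members, 64 were above the filter, and 39 of these were called, 60.9%, against 38.3% of all probe sets above the filter. With dim ones included, 24 were higher and 17 lower, against 23.2% of all probe sets called either way. Neither background was matched to the brightness of the members, and probe sets of 1 gene are not separate units. These shares are therefore descriptions. Of the 19 members with more than 1 probe set, UBE2V2 alone had probe sets called in both directions.

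**Figure D3:**
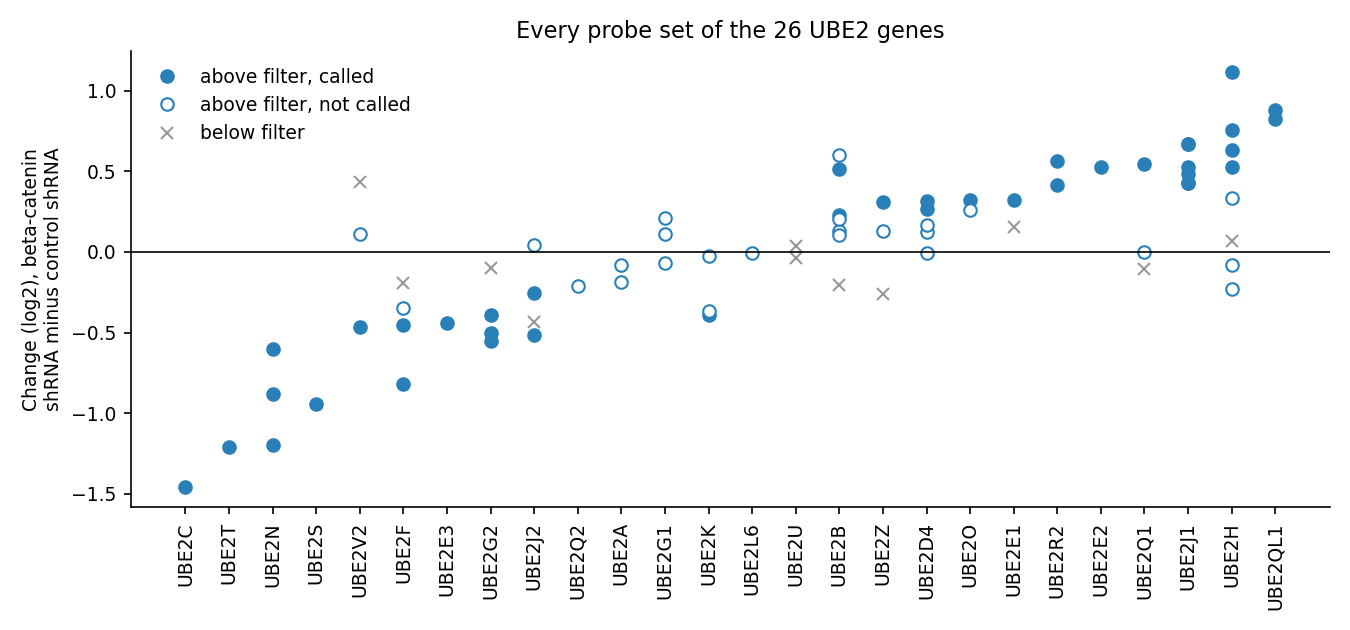
Change of every probe set of the UBE2 genes (knockdown minus control, log2, vertical axis), 1 position per gene, with filled points for called and open points for uncalled probe sets above the filter, and crosses for those below it. The 6 probe sets of UBE2J1 lie together between 0.43 and 0.67 and the 3 of UBE2N spread from −1.20 to −0.60, while those of UBE2V2 lie on both sides of 0.

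Several paralogs were called in opposite directions: UBE2E1 and UBE2E2 higher with UBE2E3 lower, and UBE2J1 higher with UBE2J2 lower. The difference of changes was computed per array for 5 pairs, those of 10 listed pairs whose genes were both tested; pairs with UBE2E2 were not among those listed. It was −0.31 for UBE2A minus UBE2B (SE 0.04), 0.76 for UBE2E1 minus UBE2E3 (SE 0.09) and 0.32 for UBE2G1 minus UBE2G2 (SE 0.12). It was 0.92 for UBE2J1 minus UBE2J2 (SE 0.11) and 0.76 for UBE2Q1 minus UBE2Q2 (SE 0.10). In all 5 pairs the per-array differences of the knockdown and the control arrays did not overlap. No such share was computed over other gene pairs, and 54.4% of all single genes did not overlap. Each exact two-sided permutation test gave p = 0.1, also after adjustment over the 5 pairs, which is the smallest p that 3 against 3 arrays allow. The differences rest on the brightest probe set of each gene, and UBE2Q1 had a change of 0.15 on the mean over its probe sets.

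The genes that work with these E2s are described next, by counts and medians. These are to be read against the 47.3% of all genes called and the all-gene median of 0.05. Of the 88 listed genes tested, 75 were at or above the 75th percentile of probe set means. Over all genes that bright 58.5% were called, 29.3% higher and 29.2% lower, with a median change of 0.02. Of 16 tested genes for APC/C subunits, activators and its inhibitor, 9 fell and 2 rose (median −0.31). CDC20, the mitotic activator of the complex, fell by 1.93 (adjusted p = 1.29e-14), and FBXO5, the APC/C inhibitor, fell by 1.54. Among the subunits ANAPC11, the RING subunit that binds UBE2C, fell by 0.83, whereas ANAPC13 rose by 0.82 and ANAPC16 by 0.30. On the mean over probe sets ANAPC11 and ANAPC13 had changes of −0.54 and 0.35, still called, and ANAPC16 reached 0.89 on the probe set without a cross-reading mark. Of 12 genes of the Fanconi ubiquitin branch, where UBE2T acts, 5 fell and 1 rose (median −0.22). The share called, 6 of 12, was close to the 47.3% of all genes called. The genes named next are those of the list that were called. FANCI, a substrate of UBE2T, fell by 1.79 (adjusted p = 5.82e-14), FANCG and FANCE of the core complex fell by 1.08 and 0.85, and USP1, which removes the ubiquitin, fell by 0.47. FANCL, the ligase that works with UBE2T, fell by 0.48, and FAAP100 was the gene that rose, by 0.29, a call lost under 10 of the 17 other settings that tested it.

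Of 10 genes that act with UBE2N, UBE2A and UBE2B on PCNA and at DNA damage, 7 fell and none rose (median −0.44). PCNA, the replication clamp, fell by 1.08 (adjusted p = 1.96e-13), and BRCA1 and BARD1, which form a ligase together, fell by 1.22 and 0.85. RNF8, a ligase that uses UBE2N, fell by 0.47 on its brightest probe set and had a change of 0.09 on the mean of its probe sets. Among 14 cullin ligase core genes, all at or above the 75th percentile, 4 rose and 4 fell (median 0.08). The share called, 57.1%, was close to the 58.5% of all genes as bright. The F-box protein gene SKP2 fell by 0.79, RBX1, the RING subunit that binds the E2, fell by 0.67, and CUL7 rose by 0.71. On the mean over probe sets SKP2 and CUL7 had changes of −0.45 and 0.36, still called. SKP1, the adaptor, fell by 0.46 on its brightest probe set but rose by 0.82 on the probe set without a cross-reading mark, so it has no settled direction here. The remaining calls were CUL1, which fell by 0.29, and CUL4B, CUL5 and DCUN1D1, which rose by 0.30, 0.34 and 0.38. Each of these 4 lost its call under 2 to 6 other settings, and CUL1 had a change of 0.02 on the mean over probe sets.

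The ER degradation genes that act with UBE2J1, UBE2G2 and UBE2J2 were called in 13 of 13 cases, 8 higher and 5 lower (median 0.76). HERPUD1, an ER membrane scaffold of the HRD1 complex, rose by 2.40 (adjusted p = 1.71e-25), and OS9, a lectin that delivers misfolded glycoproteins, rose by 0.95. MARCHF6, an ER membrane ligase, rose by 0.85, but had a change of −0.17 (adjusted p = 0.148) on the probe set without a cross-reading mark. The other rises were DERL3 with 0.96, SEL1L with 0.88, DERL2 with 0.86, ERLEC1 with 0.76 and RNF139 with 0.66. Each of these was called under all 18 alternatives, with DERL3 as low as 0.39. UFD1, of the complex that draws ubiquitylated proteins out of the membrane, fell by 1.28. Its partners NPLOC4 and VCP fell by 0.75 and 0.38, and AUP1, which recruits UBE2G2, and DERL1 fell by 0.47 and 0.28. VCP was not called on the probe set without a cross-reading mark (−0.15), and the change of DERL1 reached 0.44 under another choice of probe set, so DERL1 has no settled direction.

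Upstream of the E2s, 5 of 6 tested E1 genes fell and none rose (median −0.39). UBA1, the main ubiquitin E1, fell by 0.52, NAE1, of the NEDD8 E1, fell by 0.36, ATG7, the E1 of autophagy, fell by 0.42, and UBA6, which charges UBE2Z, fell by 0.29, a call lost under 9 of 18 other settings. UBA1 had a change of −0.26 on the mean over probe sets, still called. SAE1, of the SUMO E1, fell by 0.73, with a change of −0.12 (adjusted p = 0.468) on the probe set without a cross-reading mark. The E1 count was 2 instead of 5 under that choice of probe set. Of 6 genes for ubiquitin and its relatives, 4 fell and 2 rose (median −0.39): UBB, a ubiquitin precursor, fell by 0.64, SUMO3 and URM1 each fell by 0.50, NEDD8 fell by 0.28, UFM1 rose by 0.84 and ISG15 rose by 1.04. URM1 had a change of −0.01 on the probe set without a cross-reading mark. Of 4 ISG15 pathway genes, 3 rose (median 0.25), ISG15 itself, the ligase gene ARIH1 with 0.29 and TRIM25 with 0.20. After centring the arrays on their medians 1 of the 3 was called. Of 8 genes with an E2 fold but no UBE2 symbol, 3 fell and 1 rose (median −0.13). The share called, 4 of 8, was close to the 47.3% of all genes called. TSG101, an ESCRT subunit with an inactive E2 domain, fell by 0.87, UFC1, the E2 for UFM1, fell by 0.71, ATG3, the E2 of autophagy, fell by 0.60, and AKTIP rose by 0.69.

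**Figure D4:**
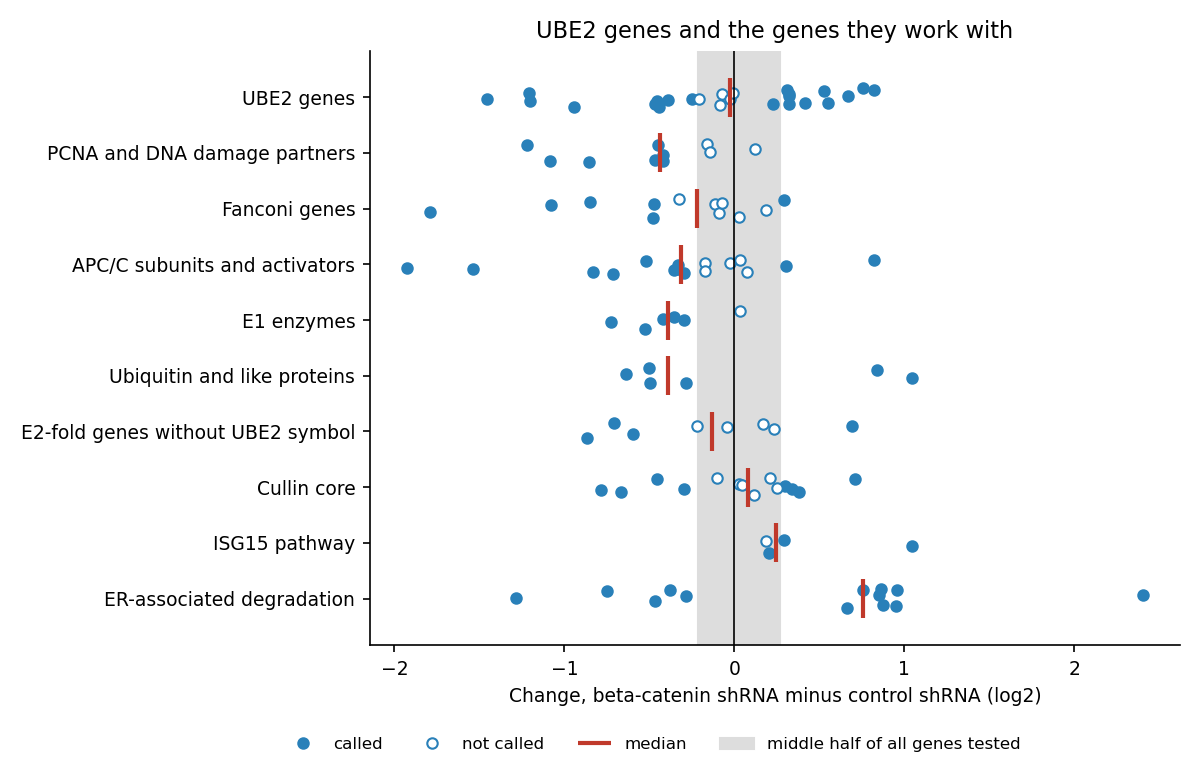
Change of each tested gene (knockdown minus control, log2, horizontal axis) in the UBE2 family and in 9 lists of genes that work with it, with filled points for called genes, a bar for the list median and a grey band from −0.21 to 0.27 for the quartiles of all genes tested. The UBE2 median lies at −0.03 inside the band, the PCNA and DNA damage list at −0.44 lies furthest left and the ER degradation list at 0.76 furthest right.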

How the data were processed

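The deposited table held log2 expression values for 54675 probe sets on 6 arrays, with a floor at 4. MAS5 and PLIER, Affymetrix summary methods, appear in the submitters' processing notes with no version or role. Neither the method behind the authors' log2 values nor the scaling between arrays is stated there. Labels that speak of embryos contradict the cell line and were not used. Values were taken as deposited. Groups came from the sample titles. The 62 control probe sets stayed out of the tests. Of the rest, 41091 had 1 gene symbol in the platform annotation, 1801 several and 11721 none; 41037 matched the RefSeq gene table (GRCh38.p14) by gene ID. A gene was read by its brightest probe set with 1 symbol and tested when that mean reached 5.49. The cross-reading mark is a probe set name that ends in _s_at or _x_at, taken alike. Whether a marked probe set reads other genes, or only several transcripts of its own gene, was not examined.

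The 2 groups were set against each other in limma 3.58.1 (lmFit, eBayes with its trend option, two-sided tests) under R 4.3.3, at a threshold of 0.05 on Benjamini-Hochberg adjusted p over all genes, or over all probe sets where single probe sets are given. Because moderation pools the spread over genes, very small p-values reflect that pooling; the closing section gives those of the leading members without it. The procedure was tested on simulated data. The number of arrays, 3 a group, limits the precision. Every member is named. Values of every array are given for UBE2C, UBE2S, UBE2T and called members with a change of at least 0.5 in size. Up to 4 called genes by adjusted p are named from each of the 9 lists. FANCL, FAAP100, ANAPC16, CUL1, CUL4B, CUL5, DCUN1D1, UBA6, URM1 and NEDD8 were added after their values were seen. So were NPLOC4, VCP, AUP1, DERL1, DERL2, DERL3, SEL1L, ERLEC1 and RNF139 of the ER degradation list. The members and lists were chosen with earlier results of these data known, so list counts are descriptions. Listed genes without a probe set of 1 symbol were not analysed here. Promoter windows were searched by script; a planned comparison of protein sequences was not run. Alternatives changed 1 choice at a time: replicate block, 3 scalings, filters, probe set rules, variance models, the offset of the log2 scale, and leaving out each array.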

Additional observations from a re-analysis of the deposited data

How the results depend on the processing

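The counts of UBE2 genes held within 1.5 times under all 18 alternatives, with 8 to 11 higher and 7 to 10 lower. The 3 cell-cycle E2s fell under each. These 3 genes have 1 probe set each, so the alternative probe set rules return the main change by construction and test nothing. The changes ranged from −1.51 to −1.30 for UBE2C, −1.27 to −1.03 for UBE2T, −0.999 to −0.87 for UBE2S, and UBE2N from −1.26 to −0.60. Without moderation the limma adjusted p was 0.00115 for UBE2C, 0.00376 for UBE2T, 0.00527 for UBE2S and UBE2Q1, 0.0012 for UBE2N, 0.00518 for UBE2H, 0.00358 for UBE2J1, 0.00673 for UBE2QL1 and 0.02 for UBE2E2. Of the values of single members under alternatives, 415 kept direction and call, 20 lost the call (7 genes), 4 gained it and 8 turned sign. The sign turned for UBE2G1 (0.085 as the mean over probe sets, 0.11 on probe sets without a cross-reading mark), UBE2V2 (0.027, mean), UBE2K (−0.0998 to 0.035 when single arrays were left out, above 0 without control replicate 1 or knockdown replicate 3) and UBE2L6 (0.021 under quantile normalization, and −0.064 to 0.080 when single arrays were left out, above 0 without control replicate 1 or knockdown replicate 3). Among the partners called it turned for RNF8 (0.091, mean), SKP1 (0.078, mean, and 0.82, unmarked probe sets) and MARCHF6 (−0.17, unmarked). It also turned for CUL1 (0.016, mean) and for DERL1 (up to 0.44, under 2 alternatives). For changes of probe set, the other probe sets of the gene are the cause by construction; otherwise the cause was not tested.

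The calls of UBE2B, UBE2J2, UBE2O and UBE2Z were lost when some single arrays were left out: UBE2B without control replicate 2 (adjusted p = 0.052) or knockdown replicate 1 or 2 (0.0847, 0.0962), UBE2J2 without control replicate 1 (0.0825) or knockdown replicate 1 or 3 (0.0947, 0.0716), UBE2O without knockdown replicate 1 or 3 (0.0655, 0.0913), and UBE2Z without knockdown replicate 2 (0.111), all limma. Without moderation UBE2E3 (0.0579), UBE2J2, UBE2O and UBE2Z were not called, and UBE2D4 was not called on the mean over probe sets (0.0962). UBE2Q2 was called lower under the 3 scalings (−0.27, −0.26 and −0.26), and UBE2K on the mean over probe sets (−0.26). TRIM25 lost its call under 11 of 18 alternatives and ARIH1 under 5. UBE2G2, UBE2Q1 and UBE2Z had no tested value on unmarked probe sets, where UBE2B and UBE2J2 had 0.60 and −0.51. UBE2A, UBE2E3 and UBE2S have marked probe sets only, so their marked values were used again under that rule. CTNNB1 had −0.36 on the mean over probe sets. With an offset of 64 the changes of dim genes shrank by over 1.5 times with the call kept, to 0.56 for ISG15, −0.22 for ATG7, −0.77 for BRCA1, −0.50 for FANCE, −0.97 for FBXO5 and 0.45 for AKTIP. Single-list counts moved by more than 1.5 times in 31 of the cases run, among them E1 genes lower (2 or 3 instead of 5), DNA damage genes lower without moderation (4 instead of 7) and ISG15 pathway genes higher (1 instead of 3).

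The deviations of each gene from its group mean correlated at −0.09, −0.26 and −0.30 between same-numbered arrays of the 2 groups. Between arrays with different numbers they correlated at −0.08 to 0.28. These values gave no sign that same-numbered arrays were pairs. With the replicate number as a block, 10 UBE2 genes were higher and 8 lower, with UBE2C at −1.46, UBE2T at −1.21, UBE2S at −0.94 and UBE2N at −1.20. UBE2B (0.0717) and UBE2J2 (0.079) lost their call there.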

Other observations

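RNAs with a UBE2 symbol that are no members also differed. UBE2NL, a pseudogene copy of UBE2N, averaged 7.31 ± 0.14 in the knockdown and 8.29 ± 0.02 in the controls (SD, n = 3 each), a change of −0.98 (limma adjusted p = 1.86e-09). Its probe set is marked as able to read other transcripts, and signal from UBE2N cannot be told apart from its own. UBE2Q2P16, a pseudogene copy of UBE2Q2, rose by 0.37 (limma adjusted p = 0.00693), also on a probe set marked as able to read other transcripts. UBE2E2-DT, a long non-coding RNA that starts beside UBE2E2, had 5.83, 5.68 and 5.59 in the knockdown arrays, against 5.11, 5.19 and 4.77 in the control arrays. These groups did not overlap, and its change was 0.68 (limma adjusted p = 0.00176 over all probe sets), although its probe set is below the filter. UBE2DNL, UBE2Q2P13 and UBE2D3-AS1 were below the filter, with differences of 0.15, −0.01 and 0.13.

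UBE2V1, the other partner of UBE2N, was read only by probe sets shared with PEDS1, and for 3 of them also with UBE2V2. Those 3 gave changes of −0.24, −0.19 and 0.16 (limma adjusted p = 0.0493, 0.138 and 0.249 over all probe sets), and the probe set without UBE2V2 gave −0.22 (0.146).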
